A study of Mus musculus with 6 samples.

Results

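Ribosome biogenesis and nucleolar genes were examined in CD4+ helper T cells of mice around transfection with synthetic miR-155, a microRNA that lymphocytes switch on upon activation. The set was chosen by name, with earlier results of these data known, as 35 genes that build ribosomes in the nucleolus. Of these, 33 were found among the 13177 transcript accessions of the count table, each by 1 accession. Dkc1 and Wdr3 were not matched and were not analysed here. The study held 2 groups of 3 libraries, controls labelled as zero hour and libraries collected 8 h after transfection. The treatment label names the miR-155 oligonucleotide for both groups, no library was collected at 8 h without it, and time and treatment therefore cannot be told apart. The cells of all libraries are labelled CD4+ T cells by source, while the description of the 8 h libraries names CD5+ T cells. No strain, age or sex is given, and the labels do not tie replicates to separate animals or cultures. The p-values therefore set the group difference only against the spread between these libraries, which may be technical.

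Ribosomes are made in the nucleolus, where RNA polymerase I transcribes the precursor of ribosomal RNA. Small nucleolar ribonucleoproteins (snoRNPs) guide 2'-O-methylation (box C/D) and pseudouridylation (box H/ACA) of that precursor, and assembly factors cut, fold and package it into a small and a large subunit. T cells enlarge their nucleoli and make more ribosomes when they leave quiescence, and the transcription factor Myc, which binds the E-box CACGTG, is a known activator of many of these genes.

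The transferred microRNA is shown first, because its seed determines which transcripts it can pair with. The mature sequence in RefSeq (chr16:84714143-84714165, plus strand, GRCm38.p6) is given with the seed, bases 2 to 8, in capitals.
mmu-miR-155-5p: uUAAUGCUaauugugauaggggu
The DNA letters that pair with the seed are AGCATTA, searched on the transcript strand of the longest 3' UTR annotated for each gene in GENCODE M21. Of the 33 members found, 1 held a match, against 8.25% of 12580 genes of the table. The searched UTRs had a median length of 816 bases for the members found and 983 for the genes of the table. These shares were not adjusted for length. The member with a match was Wdr12, whose product joins Pes1 and Bop1 in a large subunit assembly complex. Its longest annotated 3' UTR of 8379 bases held 2 matches, at bases 1097 and 5577, shown here with the match in capitals.
Wdr12 first match: tgagtgttcagAGCATTAaaacaatgtaga
Wdr12 second match: agcatcgttagAGCATTAgggattactttt
The counts of Wdr12 were 3, 10 and 9 for controls 1 to 3. For the 8 h replicates in the same order they were 11, 56 and 15. In CPM (counts scaled to a common library size), control 2 (1.96) lay above 8 h replicate 1 (1.27), so the groups overlapped. The other 32 members found held no AGCATTA in that UTR, which says only that these letters are not there.

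Promoters were searched for the E-box CACGTG, which reads the same on both strands, in windows from 250 bases before to 50 bases after the start of a gene in RefSeq (GRCm38.p6). Windows were at hand for 28 of the members found, and 6 of them (21.4%) held the motif, against 9.33% of 10176 genes of the table. The 6 genes were Mybbp1a, Nle1, Nop2, Pes1, Tsr1 and Wdr43. Windows of 3 of them are shown around the motif, in capitals, because these genes had log2 fold changes of opposite sign.
Nop2 (chr6:125131811-125131840, plus strand): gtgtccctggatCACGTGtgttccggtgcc
Tsr1 (chr11:74898092-74898121, plus strand): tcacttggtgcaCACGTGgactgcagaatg
Pes1 (chr11:3963965-3963994, plus strand): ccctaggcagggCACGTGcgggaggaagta
All 6 genes with the motif had enough counts to be tested, and 4 of them had higher values at 8 h, with a median log2 fold change of 0.92. Among the 15 tested members with a window and no such motif, 13 had higher values, with a median of 1.51. A match is a description and not a site of binding.

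A further feature, held by some members, was the presence of snoRNA genes within the gene on the same strand. Genes of small Cajal body RNAs were counted with them. GENCODE M21 placed at least 1 such gene inside 6 of the 33 members found (18.2%), against 1.49% of 12606 genes of the table. These were Gnl3, Ncl, Nop56, Nop58, Tsr1 and Wdr43.

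Actb and Gapdh, abundant in most cells, had only 1 to 5 and 1 to 11 counts per library, so it is uncertain that the accessions hold ordinary counts per gene, and all values given here carry that limit. Library depth ran from 4564010 to 13675127 counts, and the 100 most abundant accessions held 57.7% to 68.7% of each library's counts. Over the tested accessions, pairs of libraries had a Pearson's r of log2 CPM (counts scaled to a common library size) of 0.440 to 0.466 within groups and 0.426 to 0.462 between groups, as a description across genes, which are not independent. T cell markers (8 of 8 found) took 0.292% to 1.87% of counts in controls and 0.395% to 1.37% at 8 h, although Cd4 itself had only 5 to 10 counts in every library. Markers of cytotoxic and natural killer cells (6 of 6 found) took 0.144% to 0.415% of counts in controls and 0.0250% to 0.0410% at 8 h. Myeloid markers (5 of 5) took 0.00191% to 0.00436% and 0.000592% to 0.00186%, and erythroid markers (3 of 3) 0.00155% to 0.00471% and 9.61e-05% to 0.000980%, in controls and at 8 h. For these 3 lists all 8 h libraries lay below all controls, and their part in the results below was not tested. Klrb1c, Pax5 and Csf1r were each at 0 in 1 library and Alas2 in 2. B cell and CD8 T cell markers overlapped between the groups.

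The members together took a larger share of the counts at 8 h, mainly in replicates 1 and 2. The share was 0.0495%, 0.182% and 0.0335% for controls 1 to 3, against 0.488%, 0.424% and 0.168% for the 8 h replicates. Control 2 lay above 8 h replicate 3, so the groups overlapped. The means were 0.0882 ± 0.0813% (SD, n = 3) for controls and 0.360 ± 0.169% (SD, n = 3) for 8 h, a difference of 0.272 percentage points. The difference was 0.208 without 8 h replicate 1 and 0.367 without 8 h replicate 3. Without Gnl3, the member with the largest mean share, the share was 0.0313% to 0.124% in controls and 0.167% to 0.478% at 8 h, and the groups no longer overlapped. This separation depends on single genes. Gnl3 held 31.5% of the members' counts in control 2, and Gar1, which was kept, held 52.8% of those in 8 h replicate 3. No other member was left out in this way. Since these are bulk samples, more cells with a transcript and more of it per cell cannot be told apart.

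**Figure D1:**
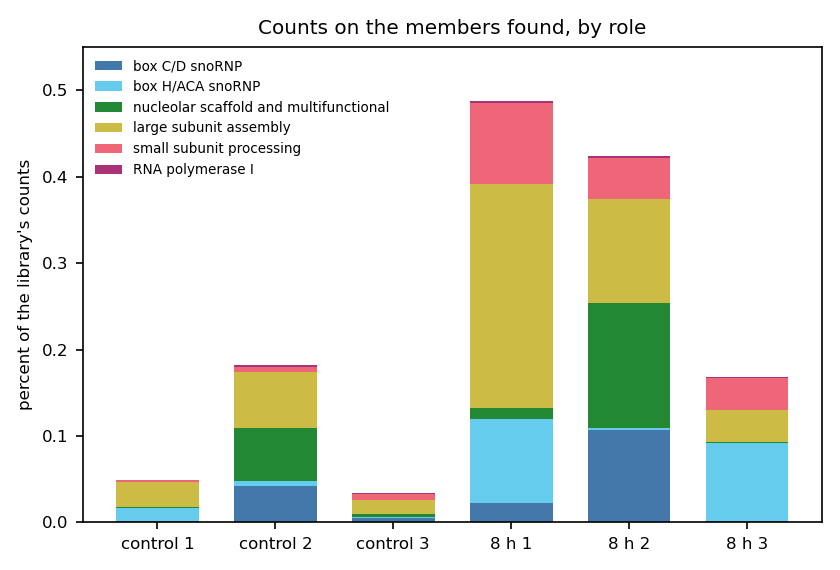
Share of each library's counts (percent, linear axis from 0) on the 33 members found, as bars stacked by role for the 3 control and 3 8 h libraries. The bars of 8 h replicates 1 and 2 are the highest (0.488% and 0.424%), and that of control 2 (0.182%) is slightly above that of 8 h replicate 3 (0.168%).

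A few genes made up most of this share, and they differed from library to library. The 3 members with the most counts held 44.0% of the members' counts in control 3 and 82.3% in 8 h replicate 3. Gnl3 led in control 2 (31.5%) and 8 h replicate 2 (33.8%). Gar1 led in control 1 (29.7%), 8 h replicate 1 (19.8%) and 8 h replicate 3 (52.8%), and Nop16 in control 3 (16.0%). These are shares of counts, not levels per length, so they do not rank the genes by number of transcripts.

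Differences between groups were tested across the whole table with edgeR's quasi-likelihood test, on the 8308 accessions with enough counts in at least 3 libraries. The test gives a log2 fold change, 8 h relative to control, so that 1 stands for a doubling, and a p adjusted over all accessions by the Benjamini-Hochberg method. Libraries were scaled by TMM, which sets library sizes so that most genes do not differ. Of the 33 members found 26 were tested, and 7 had too few counts, namely Ncl, Nolc1, Rrp1, Rrp1b, Nip7, Bysl and Polr1a. No member passed at an adjusted p under 0.05, where 0% of all tested accessions did. The adjusted p of the members ran from 0.540 to 0.998. At an unadjusted p under 0.05, 3 members had higher values (Rrp9, Nop14 and Bop1), where 4.51% of all tested accessions did, and 0 had lower values, where 4.02% did. DESeq2, run as an alternative, called Rrp9 as higher, against 2.32% of all tested accessions called higher and 2.35% called lower. It gave no adjusted p for Bop1, Rrs1 and Wdr12. limma-voom called 0 members, where it called 0% of all tested accessions. At an unadjusted p under 0.05 it gave 2 members, where 4.85% of all tested accessions passed.

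Although no single gene passed, most members had higher values at 8 h. The members were chosen with earlier results of these data known, so the counts below describe them and give no independent support. Of the 26 tested, 21 had a log2 fold change above 0 and 5 below, where 51.3% of all tested accessions lay above 0. Their median log2 fold change was 1.36, beside 0.06 over all tested accessions. A log2 fold change above 2 was found for 10 members, where 15.9% of all tested accessions had one, and below -2 for 1 member, Pes1, where 15.1% did. All 3 8 h libraries lay above all 3 controls for 2 tested members, Rrp9 and Ebna1bp2, where 5.72% of all tested accessions showed this, and below them for 0 members, where 5.08% did. Since a gene could enter the test through the group where it is high, the directions were also taken with no filter, where 26 of all 33 members found had higher values, against 52.8% of 13177 accessions, with a median log2 fold change of 0.95.

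The count of members with higher values was 17 without 8 h replicate 1 and 23 without control 2. Their median log2 fold change was 0.72 and 2.38 without the same libraries. In all 6 fits that left out 1 library, 13 members had a log2 fold change above 0 each time and 1, Pes1, below 0. These fits share most of their libraries. The same count over all tested accessions is not given here, so this one does not set the members apart. The 13 were Ebna1bp2, Gar1, Mybbp1a, Nop14, Nop16, Nop2, Polr1b, Polr1c, Rrp12, Rrp9, Tsr1, Wdr12 and Wdr75. Of these, Mybbp1a came down to 0.04 without 8 h replicate 2, and Polr1b to 0.06 without 8 h replicate 1. The highest value of a tested member fell in 8 h replicate 1 for 11 of 26 members, in 8 h replicate 2 for 8 and in 8 h replicate 3 for 2. Control 2 held the highest value of 3 members, and controls 1 and 3 of 1 each. Over all tested accessions each library held the highest value of 15.0% to 18.3%. Control 1 held the lowest value of 10 members, and control 3 and 8 h replicate 3 of 6 each.

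**Figure D2:**
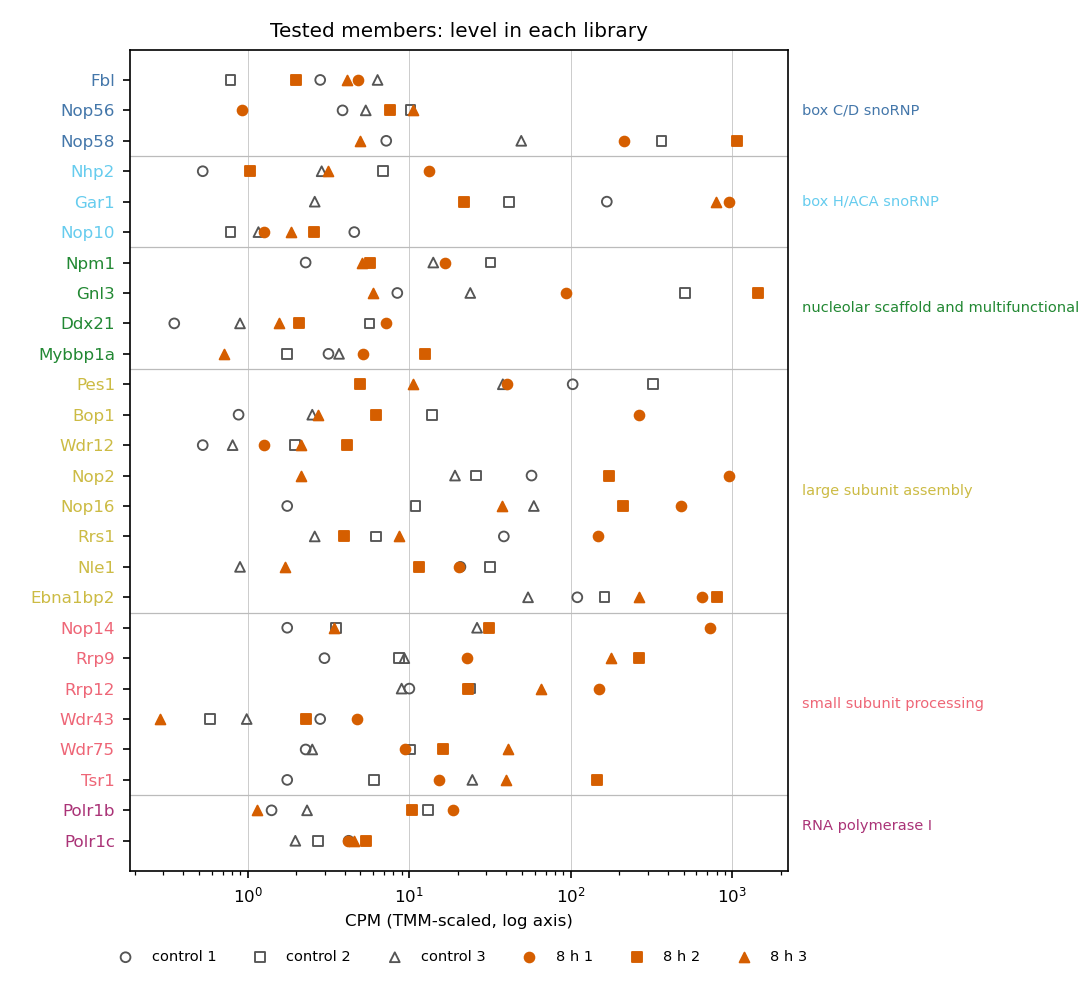
Level of each of the 26 tested members in each library, in TMM-scaled CPM on a log axis, with 1 row per gene ordered by role, open grey symbols for controls and filled orange symbols for 8 h, and the symbol shape giving the replicate number. Rrp9 and Ebna1bp2 have all 3 orange symbols to the right of the grey ones, and most other genes have interleaved symbols.

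Factors of the small subunit had higher values at 8 h in 6 of 6 tested members, with a median log2 fold change of 2.55. Together the 7 found genes of this role held 0.00192%, 0.00594% and 0.00664% of control counts, against 0.0938%, 0.0476% and 0.0367% after 8 h. The groups did not overlap for this role, while those of every other role did. Single genes weighed heavily in these sums. The largest count was that of Nop14 in 8 h replicate 1 (6257) and of Rrp9 in 8 h replicates 2 and 3 (3551 and 1237). The share without them, and how often lists of this size separate, were not examined. None of the 6 tested members of this role passed edgeR's test. The other small subunit factors of the pathway, listed below, split into 14 higher and 14 lower.

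Rrp9, a protein of the U3 snoRNP that guides the first cuts of the precursor (NM_145620, chromosome 9, 106477309 to 106485415, GRCm38), had control counts of 17, 44 and 104, against 197, 3551 and 1237 after 8 h. In TMM-scaled CPM these were 2.99, 8.61 and 9.34 in the controls and 22.8, 263 and 177 at 8 h. Every 8 h library lay above every control, and 8 h replicate 1 lay far below the other two. The means were 6.98 ± 3.47 and 154 ± 122 CPM (SD, n = 3 each), and the log2 fold change was 4.46 ± 2.06 (SE; edgeR adjusted p = 0.540). It ran from 3.83 to 4.97 when 1 library was left out. DESeq2 gave an adjusted p of 0.0113 for the same gene, and over all alternatives the adjusted p ran from there to 0.998.

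Nop14, a scaffold of early small subunit particles, had the largest log2 fold change of all tested members, and it rested on 1 library. Its values were 1.76, 3.52 and 26.3 CPM in the controls and 723, 31.1 and 3.42 CPM at 8 h, from 10, 18 and 293 counts against 6257, 419 and 24. Control 3 lay above 8 h replicate 3, and the groups overlapped. The log2 fold change was 4.58 ± 2.15 (SE; edgeR adjusted p = 0.544), and 0.70 without 8 h replicate 1.

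Rrp12, needed for export of both subunits, had control counts of 57, 122 and 100, against 1291, 314 and 459 after 8 h. In CPM control 2 (23.9) and 8 h replicate 2 (23.3) lay side by side, and the other 8 h libraries lay above all controls. Wdr75, a component of the early processome that is also linked to transcription of ribosomal RNA, had 13, 52 and 28 counts against 82, 220 and 287. In CPM its control 2 (10.2) lay above 8 h replicate 1 (9.48), so the groups overlapped. Tsr1, a late assembly factor, had 10, 31 and 274 counts against 133, 1962 and 279. For these 3 genes the log2 fold change lay between 2.16 and 2.62. Wdr43, a partner of Wdr75, reached 41 counts at most and a log2 fold change of 0.74 ± 1.21 (SE). Bysl, another late factor, had 1 to 7 counts and was not tested.

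Among factors of the large subunit, values at 8 h were higher for 6 of 8 tested members and lower for 2, with a median log2 fold change of 2.08 and 0 past edgeR's threshold. Ebna1bp2, a factor of early large subunit particles (NM_026932, chromosome 4), had 110, 162 and 54.4 CPM in the controls and 651, 804 and 265 CPM at 8 h. Every 8 h library lay above every control, and within each group the highest library was about as far from the lowest (2.97 and 3.04 times). The means were 109 ± 53.6 and 573 ± 278 CPM (SD, n = 3 each), from 606 to 825 counts in the controls and 1854 to 10843 at 8 h. The log2 fold change was 2.40 ± 2.12 (SE; edgeR adjusted p = 0.772), and 2.08 to 2.80 when 1 library was left out. It was the large subunit gene with the largest mean CPM, a count not divided by transcript length.

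The 3 proteins of the PeBoW complex, which is required to mature the RNAs of the large subunit, had log2 fold changes of both signs. Pes1 had 103, 323 and 38.0 CPM in the controls and 40.5, 4.97 and 10.6 CPM at 8 h, from 584, 1651 and 423 counts against 350, 67 and 74. Control 3 and 8 h replicate 1 lay close together, and all other values separated the groups. Its log2 fold change of -3.05 ± 1.93 (SE; edgeR adjusted p = 0.658) was the lowest of the tested members. Bop1 had control counts of 5, 71 and 28, against 2279, 84 and 19 after 8 h, a log2 fold change of 3.98 ± 1.95 (SE) that turned to -0.36 without 8 h replicate 1. Wdr12, the third protein, had a log2 fold change of 1.21 ± 1.20 (SE).

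Nop2, a methyltransferase of the large subunit RNA, had control counts of 325, 133 and 214, against 8193, 2315 and 15 after 8 h, so 8 h replicates 1 and 2 lay above the controls and replicate 3 below them. Nop16 had control counts of 10, 56 and 658, against 4180, 2852 and 264 after 8 h. The log2 fold change of Nop2 was 3.45 ± 2.12 (SE), and it was 1.35 without 8 h replicate 1 and 1.07 with limma-voom. That of Nop16 was 3.35 ± 2.03 (SE), and the fits that left out 1 library gave 2.37 (8 h replicate 1 left out) to 5.26 (control 3 left out). Rrs1, which helps to place the 5S RNA particle, had 1271 counts in 8 h replicate 1 and 29 to 219 counts in the other libraries, and its log2 fold change of 1.75 turned to -1.33 without that replicate. Nle1, a late large subunit factor, was the other member of the role with lower values (log2 fold change -0.66 ± 1.70, SE). Rrp1, Rrp1b and Nip7 never exceeded 36 counts and were left untested.

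**Figure D3:**
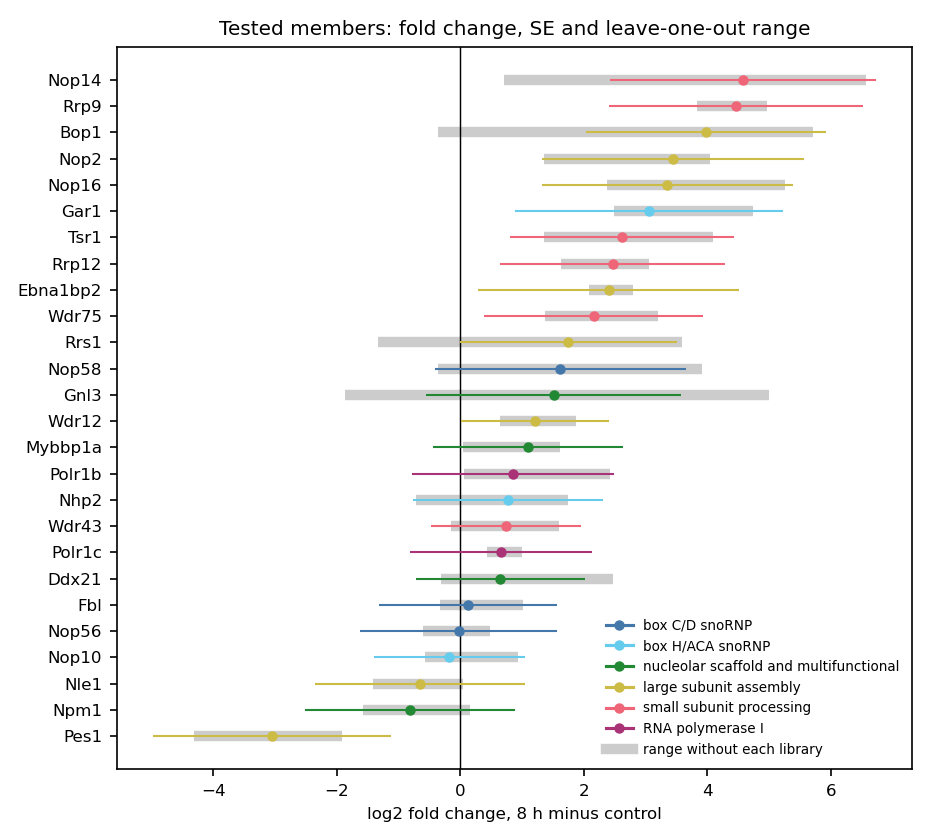
Log2 fold change (8 h minus control) of the 26 tested members, coloured by role, with bars of 1 standard error and grey bands giving the range when each of the 6 libraries was left out. Pes1 lies lowest at -3.05 and Nop14 highest at 4.58, and the bands of 12 members cross 0 (Bop1, Rrs1, Nop58, Gnl3, Nhp2, Wdr43, Ddx21, Fbl, Nop56, Nop10, Nle1 and Npm1).

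Core proteins of the snoRNPs were split. Of the box C/D proteins, Nop58, which binds the guide RNA, had 7.22, 364 and 49.4 CPM in the controls and 214, 1072 and 4.99 CPM at 8 h. Its lowest and its highest value thus both fell at 8 h. The log2 fold change was 1.62 ± 2.03 (SE; edgeR adjusted p = 0.851), and -0.36 without 8 h replicate 2. Fbl, the methyltransferase of the complex, had 4 to 71 counts in the controls and 27 to 42 at 8 h, and Nop56, the partner of Nop58, 22 to 60 and 8 to 102. Their log2 fold changes were 0.13 ± 1.44 and -0.03 ± 1.59 (SE).

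Of the box H/ACA proteins, Gar1 had 167, 41.5 and 2.60 CPM in the controls and 951, 21.9 and 790 CPM at 8 h. The values of 8 h replicates 1 and 3 lay above all controls and that of replicate 2 between them. Its log2 fold change was 3.06 ± 2.17 (SE; edgeR adjusted p = 0.700), with 2.49 to 4.74 when 1 library was left out. Nhp2 and Nop10, the small proteins of the same particle, had at most 115 and 35 counts, with log2 fold changes of 0.77 ± 1.54 and -0.18 ± 1.22 (SE). The catalytic subunit, Dkc1, was among the genes not matched.

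Nucleolar scaffold and multifunctional proteins had higher values in 3 of 4 tested members. Gnl3, the GTPase nucleostemin, ran almost parallel to Nop58 across the libraries, with control counts of 48, 2612 and 266 and 8 h counts of 807, 19566 and 42, beside 41, 1860 and 550 and 1852, 14454 and 35 counts for Nop58. Both genes were highest in 8 h replicate 2 and lowest in 8 h replicate 3, and control 2 was the highest control for both. Both hold snoRNA genes, as do Ncl, Nop56, Tsr1 and Wdr43. The pair was picked after its values were seen, and whether snoRNA genes bear on its pattern was not tested. In CPM Gnl3 stood at 181 ± 286 (SD, n = 3) for controls and 517 ± 810 (SD, n = 3) for 8 h. Its log2 fold change was 1.51 ± 2.06 (SE; edgeR adjusted p = 0.866), turning to -1.87 without 8 h replicate 2 and reaching 5.0 without control 2.

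Npm1, nucleophosmin, a chaperone of ribosomal proteins, was the scaffold gene with a log2 fold change below 0. It had control counts of 13, 163 and 157, against 145, 77 and 36 after 8 h, or 2.29, 31.9 and 14.1 CPM against 16.8, 5.71 and 5.14 CPM. The groups overlapped, and the log2 fold change stood at -0.81 ± 1.70 (SE; edgeR adjusted p = 0.927). Ddx21, an RNA helicase, and Mybbp1a, a nucleolar regulator, had at most 62 and 168 counts, with log2 fold changes of 0.65 ± 1.37 and 1.09 ± 1.54 (SE). Leaving out 1 library took that of Ddx21 to between -0.32 and 2.47 and that of Mybbp1a to between 0.04 and 1.61.

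Ncl, nucleolin, one of the main proteins of the nucleolus, had control counts of 1, 1 and 3, against 5, 6 and 2 after 8 h. In CPM every 8 h value lay above every control, but the nearest values, 0.285 at 8 h and 0.269 in controls, rest on 2 and 3 counts, and the gene was not tested. Nolc1, a snoRNP chaperone, had 1 to 3 counts in every library.

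The subunits of RNA polymerase I had few counts. Polr1b, its second largest subunit, had control counts of 8, 67 and 26, against 162, 141 and 8 after 8 h, or 1.41, 13.1 and 2.34 CPM against 18.7, 10.5 and 1.14 CPM. The groups overlapped, with a log2 fold change of 0.85 ± 1.64 (SE; edgeR adjusted p = 0.916). Polr1c, a subunit shared with RNA polymerase III, had 14 to 24 counts in the controls and 32 to 73 at 8 h. In CPM control 1 (4.22) lay above 8 h replicate 1 (4.16), so its groups overlapped too. Polr1c had the narrowest spread at 8 h of all tested members, 1.30 times from the lowest to the highest CPM. Its log2 fold change was 0.66 ± 1.48 (SE). Polr1a, the largest subunit, had 0 to 4 counts and was not tested.

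The spread within groups was as wide for the members as for the table. The highest library exceeded the lowest by a median of 8.91 times among controls and 11.7 times at 8 h over the 26 tested members. Over all tested accessions without a 0 in the group, the medians were 9.83 and 10.4 times. The standard errors of the members' log2 fold changes ran from 1.20 to 2.17, and 14 of the 26 were larger than the change itself.

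Other genes of the pathway, listed by function, had values on both sides. Of 129 listed, 106 were found and 82 tested, with 48 higher and 34 lower values at 8 h, a median log2 fold change of 0.64 and 0 past edgeR's threshold. At an unadjusted p under 0.05 there were 3 of the 82 higher, Utp20, Heatr1 and Tbl3, and 1 lower, Rrn3, where 4.51% of all tested accessions were higher and 4.02% lower. All 8 h libraries lay above all controls for 6 of the 82, where 5.72% of all tested accessions showed this, and below for 2, where 5.08% did. Whether these lists differ from the members was not tested.

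Among them, the other small subunit factors split into 14 higher and 14 lower, and the other large subunit factors into 21 and 12. The RNA exosome, which trims the precursor and degrades its spacers, split into 7 higher and 2 lower. Factors of RNA polymerase I transcription and of snoRNP assembly split into 3 and 3 each. Heatr1, a processome component that also acts on polymerase I, had a log2 fold change of 4.49, Utp20 one of 4.58 and Tbl3 one of 4.03. Rrn3, the factor that brings RNA polymerase I to its promoter, had one of -3.93. DESeq2 called Utp20, Heatr1 and Brix1 as higher and Rrn3 as lower, where it called 2.32% of all tested accessions higher and 2.35% lower. For these 5 genes, chosen after their values were seen, edgeR's adjusted p ran from 0.538 to 0.613.

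The genes with the largest mean CPM of these lists varied widely within groups. Emg1, a small subunit methyltransferase, had control counts of 68, 22007 and 416, against 137, 14117 and 15208 after 8 h. Rsl1d1, a large subunit factor, had 4914, 457 and 1820 counts against 983, 25123 and 218, and Exosc7, an exosome subunit, 46, 4481 and 168 against 4781, 389 and 8091. Znrd1, a small subunit of RNA polymerase I, had 2107, 85 and 107 counts against 1655, 1050 and 575. Ruvbl1, an ATPase that helps to assemble snoRNPs, had 885, 1997 and 2325 counts against 109, 358 and 1646. The groups overlapped for all 5 genes.

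**Figure D4:**
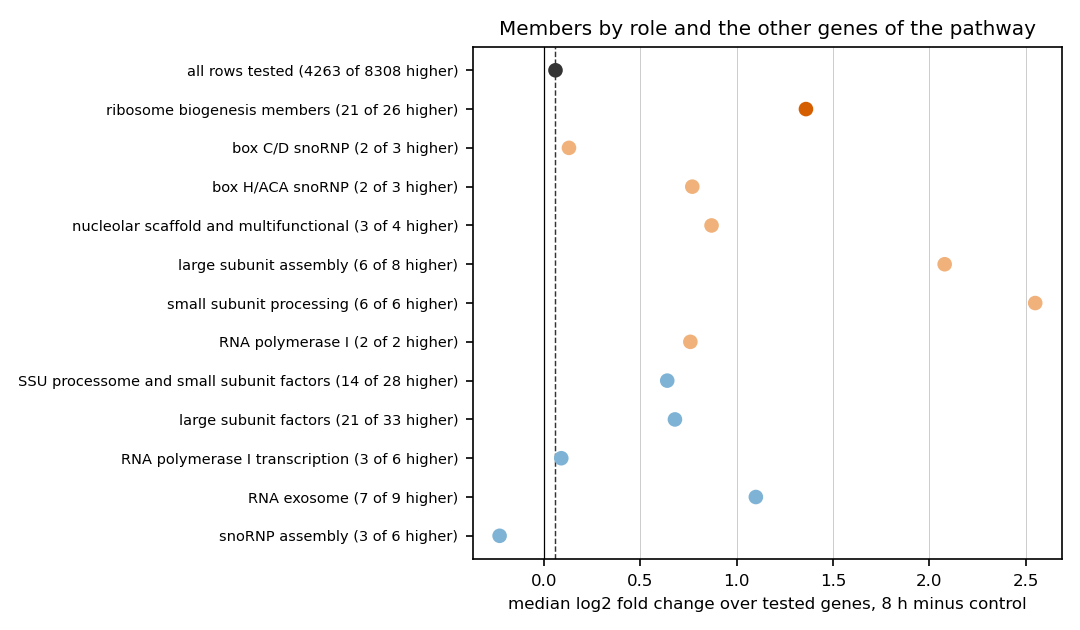
Median log2 fold change (8 h minus control) over the tested genes of each list, with the count of higher genes in the row label: all tested accessions (black), the members together (dark orange), the members by role (light orange) and the other lists of the pathway (blue). The members lie at 1.36, small subunit factors among them at 2.55, and all tested accessions (dashed line) at 0.06.

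Overlapping genes may limit some of these counts, since it is not stated whether the counting used strand. Overlaps were taken between whole genes from start to end, introns included. How many of the shared bases lie in exons was not examined. Another gene in GENCODE M21, small RNA genes aside, overlaps 15 of the 33 members found, 12 of them with a protein-coding gene, always on the opposite strand. Among the members named above these include Rrp9 (987 bases shared with Parp3), Tsr1 (2984 bases with Srr), Nop14 (1760 bases with the antisense gene Gm15522), Bop1 (2007 bases with Scx) and Pes1 (12804 bases with 4930556J24Rik). Ebna1bp2, Nop2, Nop16, Gar1, Nop58 and Rrp12 are free of such overlaps. Npm1 has many processed copies in the genome, and how reads that match several places were counted is not given.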

How the data were processed

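The 6 libraries of mouse CD4+ T cells were made with an Illumina TruSeq kit and read as 50-base single ends, per the labels' protocols. What the authors deposited is a table of raw read counts, with 13177 RefSeq transcript accessions and 1 column per library. The submitters' processing notes name Bowtie, R 3.4.2 and GRCm38 without saying what each was used for. The sources used here do not give the counting program, its treatment of strand and of reads that match several places, or any filter on accessions. Column names equal the sample titles. Accessions were given symbols through a RefSeq table of GRCm38.p6 (12827) or GENCODE M21 (47), and 303 stayed unnamed. The low counts of Actb and Gapdh leave it uncertain that the accessions hold ordinary counts per gene, which limits all values of the report.

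The comparison used the robust, two-sided quasi-likelihood F test of edgeR 4.0.16 (R 4.3.3) after TMM scaling and filterByExpr, with Benjamini-Hochberg adjustment over the 8308 accessions kept. A standard error is the size of the log2 fold change divided by the square root of F. CPM are deposited counts per 1000000 of the TMM-scaled library size. Alternatives were RLE and upper-quartile scaling, DESeq2 1.42.0, limma-voom (limma 3.58.1), no filter, a filter at a mean of 5 CPM, a replicate block and leaving out each library. The test was run on simulated counts with known changes before use. At the dispersions of these libraries it recovered 0 of 172 tested genes whose log2 level was shifted by 4, with 0 false calls. At dispersions 20 times smaller it recovered 192 of 195 tested genes changed by 2, with 10 false calls. The members and lists were chosen with earlier results of these data known. Members were named with full values where their groups did not overlap, where their log2 fold change was among the 2 largest or 2 smallest, or where they had the largest mean CPM of their role, and any other was chosen after its values were seen. One marker gene of the lists is not reported here.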

Additional observations from a re-analysis of the deposited data

How the results depend on the processing

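The count of genes differing between the groups was 0 under RLE and upper-quartile scaling, limma-voom, both filters, the replicate block and without each replicate (0 to 0), and 388 with DESeq2. In simulated counts at the dispersions of these libraries edgeR recovered 0 changed genes, and a count of 0 is thus no sign of stability. The number of members with higher values ran from 17 to 23 without each replicate, and was 14 of 18 with a mean of at least 5 CPM. Their median log2 fold change was 2.27 with that filter, where fewer genes were tested, 0.93 with limma-voom, and 0.72 to 2.38 without each replicate. The share of counts differed by 0.208 to 0.367 percentage points without each replicate. With replicate number as a block the members' median was 1.09, with 22 higher, and no call changed. Same-numbered libraries had residual correlations of -0.0107, 0.0151 and -0.0039, and the labels do not say what a number marks. DESeq2 brought Rrp9 past the threshold (4.44). The log2 fold change of Nop10 turned to 0.21 with limma-voom and 0.20 with the block. Without each replicate it ran from -0.57 to 0.94 for Nop10, -0.33 to 1.01 for Fbl, -0.60 to 0.48 for Nop56, -0.36 to 3.92 for Nop58, -0.72 to 1.75 for Nhp2, -1.57 to 0.16 for Npm1 and -1.87 to 5.0 for Gnl3. It ran from -0.32 to 2.47 for Ddx21, -0.36 to 5.72 for Bop1, -1.33 to 3.59 for Rrs1, -1.41 to 0.05 for Nle1 and -0.15 to 1.60 for Wdr43. The cause was not tested.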
